A study of Mus musculus with 2 samples.

Results

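The genes described here are 10 members of the nitric oxide and endothelin pathways of the vessel wall, taken by symbol from the 32285 genes of the deposited feature list. They are Nos3, Slc7a1 and Cav1 on the side of nitric oxide synthesis, Gucy1a1, Gucy1b1 and Pde5a on the side of its receptor, and Edn1, Ece1, Ednra and Ednrb for endothelin. Each symbol matched 1 gene.

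Nitric oxide is made from arginine by the endothelial synthase Nos3 and crosses to neighbouring smooth muscle, where it binds soluble guanylate cyclase, raises cyclic GMP and relaxes the muscle. Endothelin acts the other way in most arteries. It is a peptide that the endothelium secretes as a precursor, that converting enzyme cleaves, and that constricts smooth muscle through its A receptor, while the B receptor on endothelium clears the peptide and can trigger nitric oxide release.

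The study profiled whole mouse aorta by droplet single-cell RNA sequencing with 3′ counting (10x Genomics). The Cept1 overexpression library (Cept1fl/fl Cre+, here the Cre+ library) came from male C57BL6 mice carrying VE-cadherin-Cre-ERT2, a tamoxifen-inducible Cre driven by an endothelial promoter. In these mice, tamoxifen was meant to raise Cept1, which makes choline and ethanolamine phospholipids, in endothelial cells. The control library (here the Cre- library) came from Cept1fl/fl Cre- littermates, so by their labels mice of both groups carried the Cept1fl/fl allele. The labels describe 1 tamoxifen course for all mice, 5 daily injections of 1 mg followed by 5 days of recovery. The age label reads 6 to 8 weeks and the treatment text at least 8 weeks. Aortas of 3 mice per condition were digested, and whether the cells were pooled before loading is not stated. Each condition was 1 library, so nothing below was tested across animals. All intervals are 95% and cover counting error only. In bulk sums of this kind, fewer cells with a transcript and less transcript per cell are separated only where shares of cells are given.

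The Cre+ library held 95735360 UMIs (unique molecular identifiers, counts of captured transcripts) in 17728 barcodes, and the Cre- library 88220524 UMIs in 14349 barcodes. After filtering, 10635 cells with a median of 6301 UMIs were kept in the Cre+ library, against 8546 cells with a median of 6685 in the Cre- library, and 31 barcodes occurred in both. Cept1 itself stood at 124 (Cre+) against 77.9 (Cre-) CPM (UMIs scaled to 1000000 per class) in vascular endothelial cells, a log2 ratio of 0.67 (0.50 to 0.83). In venous-like endothelial cells it was at 82.6 in the Cre+ library and 90.6 in the Cre- library, a log2 ratio of -0.13 (-0.68 to 0.41) that does not show the increase the label names. Outside the endothelium, the Cept1 interval also lay above 0 in T or NK cells, at 0.42 (0.13 to 0.71). It did so in smooth muscle cells, at 0.29 (0.07 to 0.52), and macrophages, at 0.15 (0.03 to 0.27). The intervals of lymphatic endothelial cells, fibroblasts, neutrophils, B cells and Schwann cells included 0. Gt(ROSA)26Sor, the noncoding gene of a locus often used for transgenes, was at 0.86 (Cre+) against 26.3 (Cre-) CPM in vascular endothelial cells and at 0.65 (Cre+) against 17.3 (Cre-) in fibroblasts. That difference was thus also seen outside the endothelium, and its source was not tested.

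Cells were assigned to classes by the number of distinct marker genes with a UMI. The vascular endothelial cells numbered 1180 in the Cre+ library and 532 in the Cre- library. Of them, 731 (Cre+) and 235 (Cre-) were arterial, 315 (Cre+) and 197 (Cre-) capillary and 89 (Cre+) and 68 (Cre-) venous-like. There were 223 (Cre+) and 108 (Cre-) lymphatic endothelial cells, 691 (Cre+) and 566 (Cre-) smooth muscle cells, 5516 (Cre+) and 4263 (Cre-) fibroblasts and 1664 (Cre+) and 764 (Cre-) macrophages. The other classes used were T or NK cells, B cells, neutrophils and Schwann cells, from 55 to 251 cells each in the Cre+ library and from 60 to 640 in the Cre- library. Pericytes, of which each library had 9, were too few to use. The endothelium differed in make-up, since arterial cells were 61.9% of vascular endothelial cells in the Cre+ library and 44.2% in the Cre- library. Values are therefore given by subtype.

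Levels below are CPM, the UMIs of a gene per 1000000 UMIs of all genes in the cells of a class. They compare classes and libraries for 1 gene at a time and do not rank genes against each other.

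**Figure D1:**
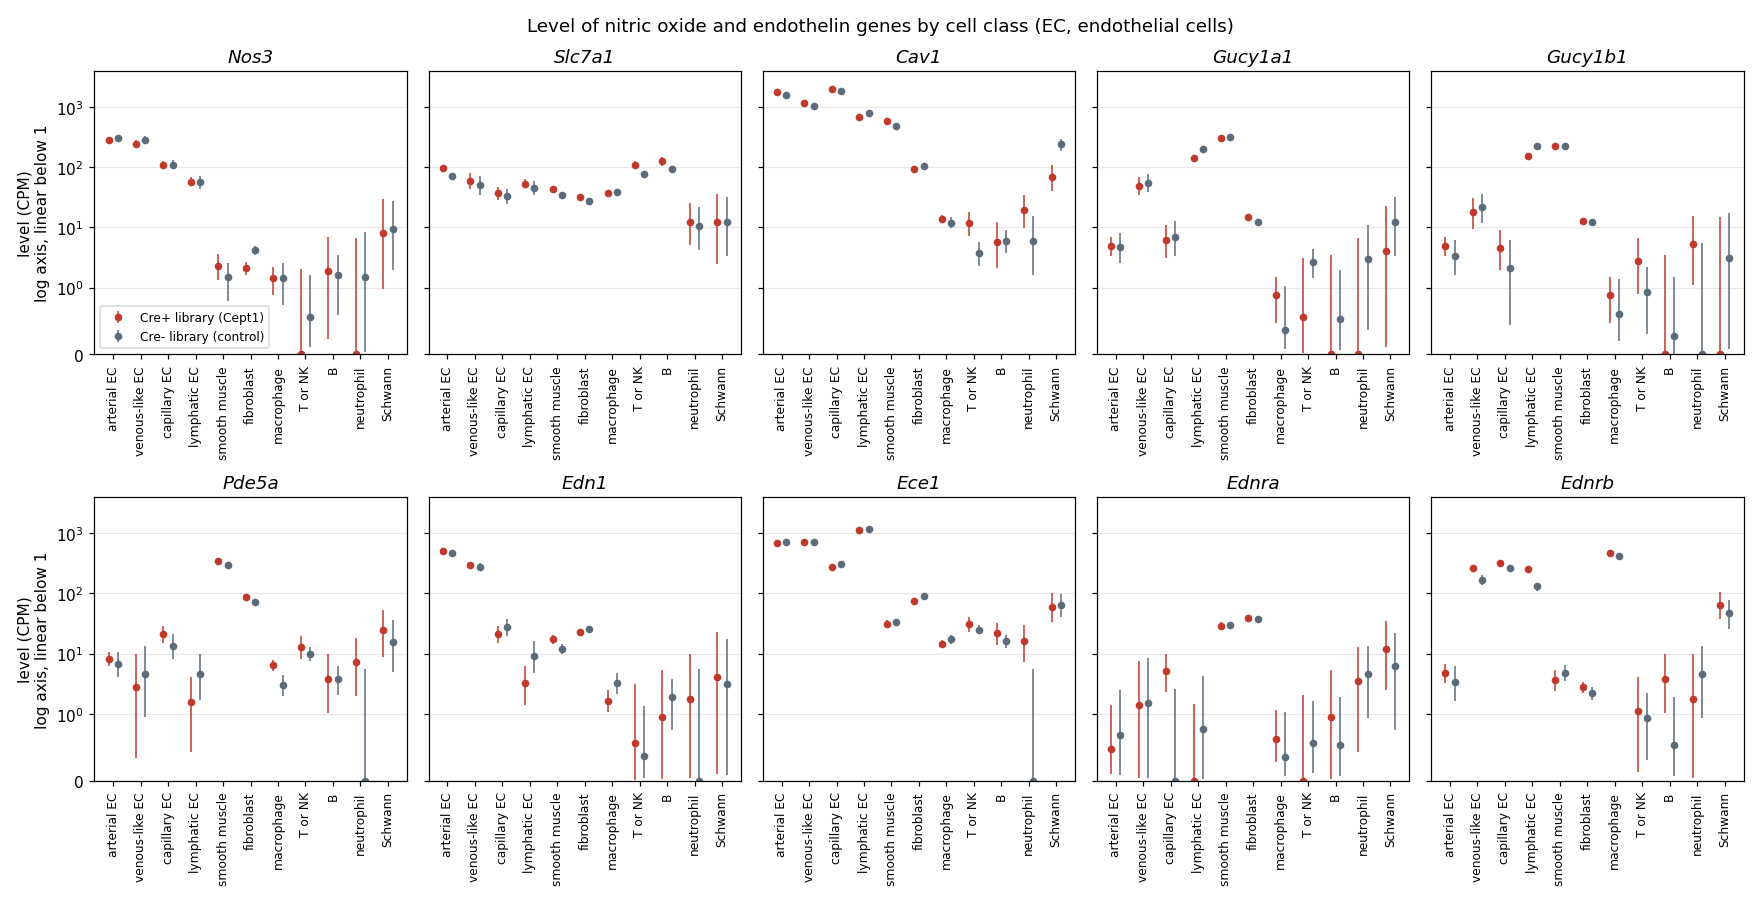
Level of each gene (CPM, log axis that is linear below 1) in 11 cell classes, with the Cre+ library left of the Cre- library and bars for exact 95% Poisson intervals. Nos3, Cav1, Ece1 and Edn1 were highest in endothelial classes, Gucy1a1 and Pde5a in smooth muscle cells, Ednra in fibroblasts and Ednrb in macrophages. Gucy1b1 was highest in smooth muscle cells of the Cre+ library. In the Cre- library it was at 224 CPM in lymphatic endothelial cells and 222 in smooth muscle cells.

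Nos3, the endothelial nitric oxide synthase, lies on chromosome 5 (chr5:24364810-24384474 of GRCm38, plus strand). Arterial endothelial cells had 279.6 CPM in the Cre+ library and 309.6 in the Cre- library, a log2 ratio of -0.15 (-0.26 to -0.03). Venous-like cells had 248 in the Cre+ library and 289 in the Cre- library, a log2 ratio of -0.22 (-0.52 to 0.08). Capillary cells followed with 109.9 (Cre+) and 111 (Cre-), and lymphatic endothelial cells with 57.7 (Cre+) and 55.8 (Cre-). The order arterial, venous-like, capillary, lymphatic was the same in both libraries, and the arterial and venous-like ranges over the libraries overlapped. Every other class lay below 10 CPM. At equal depth, after thinning each cell to 2000 UMIs, 38.9% of arterial cells had a Nos3 UMI in the Cre+ library and 44.7% in the Cre- library. For venous-like cells the shares were 45.5% (Cre+) and 38.5% (Cre-), so by share of cells the order of arterial and venous-like differed between libraries.

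In fibroblasts, Nos3 was past 1.5-fold, as were 7.66% of all genes with at least 50 UMIs there, with 2.10 CPM in the Cre+ library and 4.17 in the Cre- library, a log2 ratio of -0.99 (-1.44 to -0.56). These were 68 (Cre+) and 130 (Cre-) UMIs, and only 1.0% (Cre+) and 2.2% (Cre-) of fibroblasts had one. Background in cells that should lack the enzyme differed by class. In the Cre+ library, Nos3 was at 1.90 CPM (0.23 to 6.86) in B cells, from 2 UMIs. It had 0 UMIs in T or NK cells, with an interval that reaches 2.07 CPM. In the Cre- library, it was at 1.60 in B cells and 0.56 in T or NK cells. Schwann cells had 8.08 (Cre+) and 9.31 (Cre-), from 2 and 3 UMIs. The fibroblast level was thus near the B and T or NK levels in the Cre+ library and above them in the Cre- library. It was below the Schwann level in each library. Median depths were 4445 (Cre+) and 5383 (Cre-) UMIs per cell in B cells, 6401 (Cre+) in T or NK cells and 4846 in fibroblasts of either library. The summed level of 10 endothelial markers in fibroblasts moved the same way, at 196 CPM in the Cre+ library and 283 in the Cre- library, with none at 0. Its part in the Nos3 difference was not tested. The Nos3 ratio in fibroblasts was -0.26 with called doublets kept and -0.20 with a stricter marker gate.

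Slc7a1 encodes the arginine transporter that supplies the synthase (chr5:148327410-148399904, minus strand). In arterial endothelial cells it was at 95.3 CPM in the Cre+ library and 70.6 in the Cre- library, a log2 ratio of 0.43 (0.20 to 0.67). Capillary cells had 37.4 (Cre+) and 33.0 (Cre-), venous-like cells 59.2 (Cre+) and 50.7 (Cre-), and lymphatic endothelial cells 53.4 (Cre+) and 45.9 (Cre-). Each of these 3 intervals included 0. The gene was not endothelial in its pattern, since B cells had 126 in the Cre+ library and 94.7 in the Cre- library, and T or NK cells 109 (Cre+) and 77.7 (Cre-). Smooth muscle cells (0.33, 0.10 to 0.56), fibroblasts (0.21, 0.08 to 0.34), T or NK cells (0.49, 0.23 to 0.73) and B cells (0.42, 0.12 to 0.71) also had log2 ratios with intervals above 0. TMM scaling shifted all ratios in T or NK cells by -0.15 (log2), and the Slc7a1 ratio there was then 0.33 (0.08 to 0.58). Macrophages were an exception, with 36.9 in the Cre+ library and 39.3 in the Cre- library.

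Cav1 encodes caveolin-1, the coat protein of caveolae, which binds the synthase and reduces its activity (chr6:17306335-17341452, plus strand). Nearly all vascular endothelial cells had Cav1 UMIs, 98.6% in the Cre+ library and 98.1% in the Cre- library. Capillary cells had 2026 CPM in the Cre+ library and 1835 in the Cre- library. Arterial cells had 1757 (Cre+) and 1582 (Cre-), and venous-like cells 1190 (Cre+) and 1056 (Cre-), so in both libraries the 3 subtypes kept the order capillary, arterial, venous-like without overlap. The log2 ratios of the subtypes lay close together, at 0.14 (0.07 to 0.22), 0.15 (0.10 to 0.20) and 0.17 (0.03 to 0.32). Smooth muscle cells had 579 CPM in the Cre+ library and 477 in the Cre- library, a log2 ratio of 0.28 (0.22 to 0.34).

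In lymphatic endothelial cells and fibroblasts, Cav1 was lower in the Cre+ library. Lymphatic cells had 674 (Cre+) against 803 (Cre-) CPM, a log2 ratio of -0.25 (-0.36 to -0.14), which was -0.03 without cells that had adipocyte, platelet or erythroid marker UMIs. Fibroblasts had 93.8 (Cre+) against 104 (Cre-), a log2 ratio of -0.16 (-0.23 to -0.08). The 55 (Cre+) and 60 (Cre-) Schwann cells had 68.7 CPM in the Cre+ library and 239 in the Cre- library, from 17 (Cre+) and 77 (Cre-) UMIs. The 5 Schwann cells with the most Cav1 held 82.4% of its UMIs in the Cre+ library and 54.5% in the Cre- library, and without them the log2 ratio of -1.80 (-2.65 to -1.03) was -3.23 (-5.58 to -1.57). Cav1 was the only gene of the 10 with at least 50 UMIs in Schwann cells, a class in which 24.2% of all genes so measured were past 1.5-fold.

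Gucy1a1 and Gucy1b1 encode the alpha and beta subunits of soluble guanylate cyclase, the nitric oxide receptor, which works as a heterodimer. The genes are direct neighbours on the minus strand of chromosome 3, Gucy1a1 at chr3:82092427-82145789 and Gucy1b1 at chr3:82032006-82074689 of GRCm38, 17737 bases apart with 0 annotated genes between. Their levels followed each other across classes. Across 22 class-by-library points, Gucy1b1 was the gene most correlated with Gucy1a1 among 13846 genes and Gucy1a1 the gene most correlated with Gucy1b1 (Pearson r = 0.97 on the log2 scale), a description over points that share libraries and depth.

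Smooth muscle cells held 62.0% of all Gucy1a1 UMIs in kept cells of the Cre+ library and 63.1% in the Cre- library. There Gucy1a1 was at 305 CPM in the Cre+ library and 315 in the Cre- library, a log2 ratio of -0.05 (-0.13 to 0.03). Gucy1b1 was at 222 in the Cre+ library and 222 in the Cre- library, a log2 ratio of 0.00 (-0.09 to 0.10). These intervals are narrow as far as counting goes, with no measure of the spread between animals.

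Lymphatic endothelial cells were the other class with high levels of both subunits. Gucy1a1 was at 142 CPM in the Cre+ library and 198 in the Cre- library, and Gucy1b1 at 155 (Cre+) and 224 (Cre-). The log2 ratios were -0.48 (-0.71 to -0.24) and -0.54 (-0.76 to -0.31). Of cells thinned to 2000 UMIs, 18.5% had Gucy1a1 in the Cre+ library and 32.4% in the Cre- library, and 23.4% (Cre+) and 38.1% (Cre-) had Gucy1b1. Smooth muscle marker levels in these cells were 290.3 (Cre+) and 267 (Cre-) CPM with no marker at 0. Per 1000 smooth muscle marker UMIs there were 489.7 (Cre+) and 742 (Cre-) Gucy1a1 UMIs in lymphatic cells, against 7.94 (Cre+) and 7.40 (Cre-) in smooth muscle cells. Fibroblast markers summed to 196 CPM in the lymphatic cells of the Cre+ library and 723 in those of the Cre- library. Lymphatic markers, the immediate early list and the macrophage list were higher in the Cre+ library by log2 0.36, 0.59 and 0.57. The part of these lists in the subunit levels was not tested.

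Fibroblasts had both subunits at low levels, but held 13.2% of Gucy1a1 UMIs in the Cre+ library and 8.86% in the Cre- library, and 14.6% (Cre+) and 12.02% (Cre-) of Gucy1b1 UMIs. Gucy1a1 was at 14.95 (Cre+) and 12.3 (Cre-) CPM, a log2 ratio of 0.28 (0.08 to 0.48), and Gucy1b1 at 12.7 (Cre+) and 12.05 (Cre-), a log2 ratio of 0.08 (-0.13 to 0.28). Per 1000 smooth muscle marker UMIs there were 36.3 (Cre+) and 25.6 (Cre-) Gucy1a1 UMIs, above the ratio in smooth muscle cells in both libraries. Of fibroblasts thinned to 2000 UMIs, 0.34% (Cre+) and 0.28% (Cre-) had both subunits, where independent detection would give 0.061% (Cre+) and 0.068% (Cre-).

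Blood endothelial cells had little of either subunit. Arterial cells had 4.91 (Cre+) and 4.75 (Cre-) CPM of Gucy1a1, and per 1000 smooth muscle marker UMIs they had 4.45 (Cre+) and 5.67 (Cre-), below the ratio in smooth muscle cells. Venous-like cells were higher, with 49.6 in the Cre+ library and 55.3 in the Cre- library, from 36 UMIs each. Pooled over vascular endothelial cells, Gucy1a1 was past 1.5-fold, as were 8.41% of all genes, at 10.2 (Cre+) against 15.9 (Cre-) CPM, a log2 ratio of -0.64 (-1.07 to -0.20). Within the subtypes, the log2 ratios were 0.05 (-0.91 to 1.07) in arterial, -0.17 (-1.55 to 1.22) in capillary and -0.16 (-0.86 to 0.55) in venous-like cells. With the 3 subtypes weighted equally, the ratio was -0.14. It was -0.23 (-0.76 to 0.32) without the 5 top cells of each library, which held 21.1% of the UMIs in the Cre+ library and 41.9% in the Cre- library, and 0.05 (-0.86 to 1.03) in thinned cells. Venous-like cells were 7.54% of vascular endothelial cells in the Cre+ library and 12.8% in the Cre- library, and the part of this share and of single cells in the pooled value was not tested.

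The 250 bases before the RefSeq start site of Gucy1b1 are shown because its levels follow those of its neighbour, and those of Edn1 as the ligand with the opposite cell pattern. Windows were taken from the RefSeq promoter table (GRCm38.p6) for 9 of the 10 genes, with 15 start sites, and are written 5′ to 3′ on the gene's strand. Capitals mark the CCAAT box, letters CCAAT on either strand.
Gucy1b1, chr3:82074712-82074961, minus strand: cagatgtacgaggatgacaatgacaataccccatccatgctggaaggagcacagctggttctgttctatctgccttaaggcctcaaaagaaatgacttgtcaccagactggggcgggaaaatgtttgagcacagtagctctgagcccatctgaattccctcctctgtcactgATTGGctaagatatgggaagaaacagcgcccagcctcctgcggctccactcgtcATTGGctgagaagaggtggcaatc
Edn1, chr13:42301226-42301475, plus strand: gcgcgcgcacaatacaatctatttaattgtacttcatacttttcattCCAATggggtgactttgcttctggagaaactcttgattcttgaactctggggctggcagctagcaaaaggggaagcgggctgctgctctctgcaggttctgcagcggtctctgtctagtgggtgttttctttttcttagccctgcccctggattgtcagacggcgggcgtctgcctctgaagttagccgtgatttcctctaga

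In Gucy1b1 the box occurred on the other strand, beginning 78 and 24 bases before the start, and in Edn1 it began 203 bases before. No window of Gucy1a1 held it, and 33.8% of 32851 upstream windows of that length did. The CArG box, a sequence known from smooth muscle genes, was in 1.47% of windows and in 0 of the 15 here. A match or its absence describes these letters only.

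Pde5a encodes the phosphodiesterase that breaks down cyclic GMP (chr3:122728947-122859374, plus strand). It was at 344 CPM in smooth muscle cells of the Cre+ library and 302 in those of the Cre- library, a log2 ratio of 0.19 (0.11 to 0.27). Fibroblasts were next, with 87.1 (Cre+) and 72.9 (Cre-) CPM and a log2 ratio of 0.26 (0.18 to 0.34). Fibroblasts held 46.7% of all Pde5a UMIs in the Cre+ library and 40.2% in the Cre- library, about as many as smooth muscle cells, which held 42.5% (Cre+) and 46.3% (Cre-). Within fibroblasts, cells without a UMI of Pi16, a marker of adventitial fibroblasts, had 132 CPM in the Cre+ library and 106 in the Cre- library, against 80.6 (Cre+) and 69.6 (Cre-) in cells with one.

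Capillary endothelial cells had 21.0 Pde5a CPM in the Cre+ library and 13.3 in the Cre- library. This was past 1.5-fold, as were 9.98% of all genes in these cells, but its interval, -0.18 to 1.53 around 0.65, included 0, and the values rest on 37 (Cre+) and 19 (Cre-) UMIs. In macrophages the gene was at 6.44 in the Cre+ library and 3.00 in the Cre- library, a log2 ratio of 1.10 (0.45 to 1.80) from 94 (Cre+) and 25 (Cre-) UMIs, and 7.46% of all genes in macrophages were past 1.5-fold. Smooth muscle markers in the same macrophages were at 192 (Cre+) and 122 (Cre-) CPM, and fibroblast markers at 369 (Cre+) and 285 (Cre-), with no marker of either list at 0. The part of these lists in the Pde5a value was not tested.

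**Figure D2:**
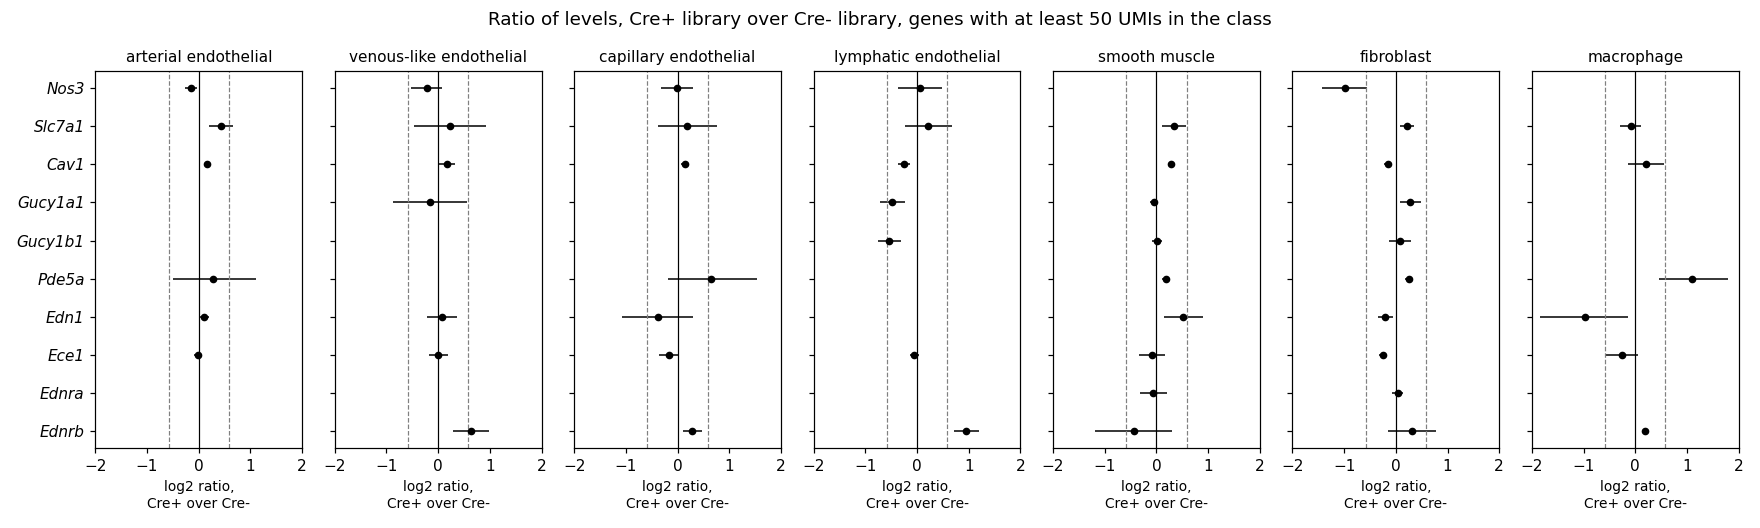
Log2 ratio of the level in the Cre+ library over that in the Cre- library for each gene with at least 50 UMIs in the class (points, with 95% counting intervals), by class; dashed lines mark 1.5-fold either way. Most points lie between the dashed lines, and Ednrb in lymphatic and venous-like endothelial cells lies to the right of them.

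Edn1, the gene of the endothelin-1 precursor (chr13:42301476-42307990, plus strand), was an arterial transcript. Arterial cells had 500.1 CPM in the Cre+ library and 464 in the Cre- library, a log2 ratio of 0.11 (0.02 to 0.20). Venous-like cells had 292 (Cre+) and 278 (Cre-), with 53.3% (Cre+) and 54.1% (Cre-) of these UMIs in 5 cells of each library. Capillary cells had only 21.0 (Cre+) and 27.4 (Cre-) and lymphatic cells 3.19 (Cre+) and 9.18 (Cre-), so the Edn1 level differed more than 15-fold between arterial and capillary cells of either library. Edn1 was also uneven from cell to cell. The 5 arterial cells with the most held 7.82% of the UMIs in the Cre+ library and 18.6% in the Cre- library, and the highest control cell had 111. Without those 5 cells of each library, the arterial log2 ratio was 0.25 (0.15 to 0.35). The 5 were of 731 arterial cells in the Cre+ library and 235 in the Cre- library, so a larger share of Cre- cells was left out. At equal depth, 45.9% (Cre+) and 46.5% (Cre-) of arterial cells had an Edn1 UMI.

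Pooled over vascular endothelial cells, Edn1 was at 388 CPM in the Cre+ library and 314 in the Cre- library, a log2 ratio of 0.30 (0.22 to 0.39). With the 3 subtypes weighted equally it was 0.08. In arterial cells with UMIs of both Fos and Jun, immediate early genes that tissue dissociation induces, Edn1 was at 557 in the Cre+ library and 461 in the Cre- library. In arterial cells without both it was at 445 (Cre+) and 466 (Cre-). In venous-like cells the same split gave 371 (Cre+) and 362 (Cre-) with both genes and 116 (Cre+) and 104 (Cre-) without, a difference within each library of over 3-fold. Since 5 cells held 53.3% (Cre+) and 54.1% (Cre-) of the venous-like Edn1 UMIs, that difference may rest on few cells. The immediate early list as a whole summed to 2941 CPM in arterial cells of the Cre+ library and 2817 in those of the Cre- library, with none of its 18 genes at 0, and its part in the Edn1 values was not tested. Arterial cells with both Fos and Jun UMIs were 299 of 731 in the Cre+ library and 68 of 235 in the Cre- library. The Nos3 log2 ratio was 0.01 (-0.18 to 0.19) in arterial cells with both and -0.26 (-0.41 to -0.11) in those without.

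Fibroblasts were a second site of Edn1, with 22.6 CPM in the Cre+ library and 25.9 in the Cre- library, a log2 ratio of -0.20 (-0.35 to -0.05). Because of their number, fibroblasts held 14.7% of all Edn1 UMIs in the Cre+ library and 26.6% in the Cre- library. Per 1000 endothelial marker UMIs they had 115 (Cre+) and 91.7 (Cre-) Edn1 UMIs, more than the 53.2 (Cre+) and 47.6 (Cre-) of arterial cells. Nos3 did not show this, with 10.7 (Cre+) and 14.7 (Cre-) per 1000 in fibroblasts against 29.7 (Cre+) and 31.8 (Cre-) in arterial cells. Nearly all fibroblast Edn1 was in cells with a Pi16 UMI, where it stood at 25.1 (Cre+) and 27.8 (Cre-) CPM, against 4.68 (Cre+) and 6.19 (Cre-) in cells without. Most fibroblasts had such a UMI, 4533 of 5516 in the Cre+ library and 3657 of 4263 in the Cre- library. Smooth muscle cells had 17.2 in the Cre+ library and 11.99 in the Cre- library, a log2 ratio of 0.52 (0.14 to 0.91), which was 0.37 (-0.07 to 0.82) without the top 5 cells of each library. Endothelial markers in smooth muscle cells summed to 218 (Cre+) and 174 (Cre-) CPM, higher in the Cre+ library for 9 of 10. Per 1000 of these marker UMIs there were 78.9 (Cre+) and 69.0 (Cre-) Edn1 UMIs. The part of these markers in the Edn1 ratio was not tested.

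Ece1, the endothelin-converting enzyme that cuts the precursor to the active peptide (chr4:137862237-137965229, plus strand), was highest in lymphatic endothelial cells. They had 1124 CPM in the Cre+ library and 1162 in the Cre- library, a log2 ratio of -0.05 (-0.14 to 0.04). Arterial cells had 702 (Cre+) and 706 (Cre-) and venous-like cells 713 (Cre+) and 712 (Cre-), close to each other, with counting intervals that overlapped. Capillary cells had 280.5 (Cre+) and 314 (Cre-), a log2 ratio of -0.16 (-0.35 to 0.02). In fibroblasts the gene was at 75.9 in the Cre+ library and 89.8 in the Cre- library, a log2 ratio of -0.24 (-0.32 to -0.16). Enzyme and ligand thus had unlike patterns, with the enzyme highest in the lymphatic cells, where the ligand was nearly absent.

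**Figure D3:**
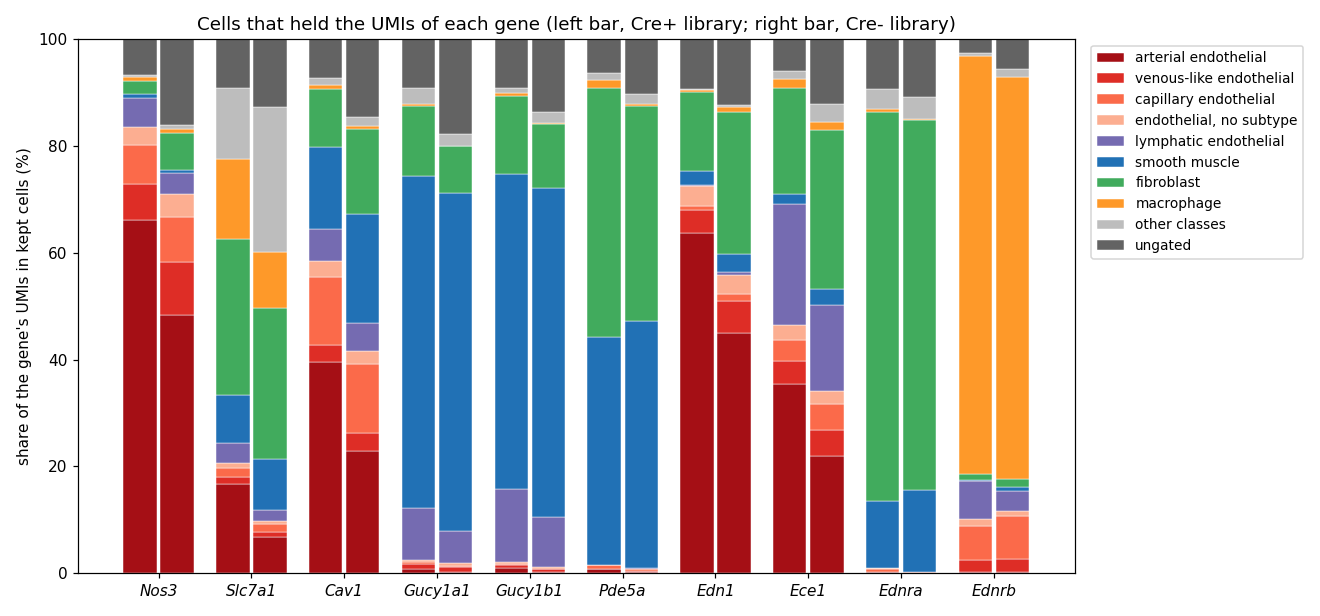
Share of each gene's UMIs (percent of all UMIs of the gene in kept cells) found in each cell class, left bar for the Cre+ library and right bar for the Cre- library. Macrophages held 78.2% (Cre+) and 75.2% (Cre-) of Ednrb UMIs and fibroblasts 72.8% (Cre+) and 69.2% (Cre-) of Ednra UMIs, and arterial cells held more of Nos3 and Edn1 in the Cre+ library, in which they were more numerous.

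Ednra, the A receptor that mediates constriction (chr8:77663031-77724464, minus strand), was measured in fibroblasts and smooth muscle cells. Fibroblasts had 38.9 CPM in the Cre+ library and 38.0 in the Cre- library, a log2 ratio of 0.03 (-0.08 to 0.15). Smooth muscle cells had 29.0 (Cre+) and 30.2 (Cre-), a log2 ratio of -0.06 (-0.33 to 0.21). At equal depth, 5.41% of smooth muscle cells of the Cre+ library and 7.22% of those of the Cre- library had an Ednra UMI. Fibroblasts held 72.8% of its UMIs in the Cre+ library and 69.2% in the Cre- library. Arterial endothelial cells had 3 UMIs in the Cre+ library and 2 in the Cre- library, and no difference was detectable at this depth.

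Ednrb, the B receptor (chr14:103814625-103844402, minus strand), was mainly a macrophage transcript. Macrophages had 478 CPM in the Cre+ library and 419 in the Cre- library, a log2 ratio of 0.19 (0.13 to 0.25), and held 78.2% (Cre+) and 75.2% (Cre-) of all Ednrb UMIs. Those with a UMI of Folr2 or Cd163, markers of resident macrophages, had 509 in the Cre+ library and 443 in the Cre- library, against 75.0 (Cre+) and 98.6 (Cre-) in macrophages without. Capillary endothelial cells had 323 (Cre+) and 264 (Cre-), a log2 ratio of 0.29 (0.10 to 0.48). Macrophage markers in capillary cells summed to 301 (Cre+) and 70.2 (Cre-) CPM, higher in the Cre+ library for 10 of 10. Per 1000 of these marker UMIs there were 1071 (Cre+) and 3770 (Cre-) Ednrb UMIs, against 27.5 (Cre+) and 23.6 (Cre-) in macrophages. The part of these markers was not tested. Ednrb in arterial cells was at only 4.75 (Cre+) and 3.40 (Cre-) CPM. Within the blood endothelium, Edn1 was therefore highest in arterial cells and Ednrb in capillary cells, and venous-like cells as a class had both. Whether the same cells held both was not measured. Capillary markers in venous-like cells summed to 5827 CPM in the Cre+ library and 9432 in the Cre- library, and their part was not tested.

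In lymphatic endothelial cells, Ednrb was past 1.5-fold. It stood at 253 CPM in the Cre+ library and 131 in the Cre- library, from 636 (Cre+) and 171 (Cre-) UMIs, a log2 ratio of 0.95 (0.71 to 1.21). Of cells thinned to 2000 UMIs, 29.3% had an Ednrb UMI in the Cre+ library and 13.3% in the Cre- library. The 5 cells with the most held 23.7% of its UMIs in the Cre+ library and 48.5% in the Cre- library, and without them the log2 ratio was 1.51 (1.18 to 1.85). Those 5 were of 223 cells in the Cre+ library and 108 in the Cre- library, so a larger share of Cre- cells was left out. Macrophage markers in these lymphatic cells summed to 207 CPM in the Cre+ library and 139.9 in the Cre- library, higher for 10 of 10 markers. Capillary markers, of a class that has Ednrb itself, summed to 1528 CPM in the Cre+ library and 1061 in the Cre- library, higher for 8 of 10, and the lymphatic and immediate early lists were higher by log2 0.36 and 0.59. The part of these lists in the Ednrb value was not tested. Per 1000 macrophage marker UMIs the lymphatic cells had 1223 (Cre+) and 934 (Cre-) Ednrb UMIs, against 27.5 (Cre+) and 23.6 (Cre-) in macrophages. Of the 7 genes with at least 50 UMIs in lymphatic endothelial cells, Ednrb was the only one past 1.5-fold, and 10.4% of all genes measured there were.

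Venous-like endothelial cells had 263 Ednrb CPM in the Cre+ library and 170.4 in the Cre- library, a log2 ratio of 0.63 (0.28 to 0.98), in a class where 12.2% of all genes were past 1.5-fold. Here 69.1% of the UMIs in the Cre+ library came from 5 of 89 cells. Without the top 5 cells of each library the ratio was -0.09 (-0.64 to 0.46), and of thinned cells 12.5% had a UMI in the Cre+ library and 21.5% in the Cre- library. The venous-like value therefore rested on a few cells, and no order of the libraries is read from it. Erythroid markers in venous-like cells were at 15377 CPM in the Cre+ library and 2644 in the Cre- library, and their part was not tested.

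**Figure D4:**
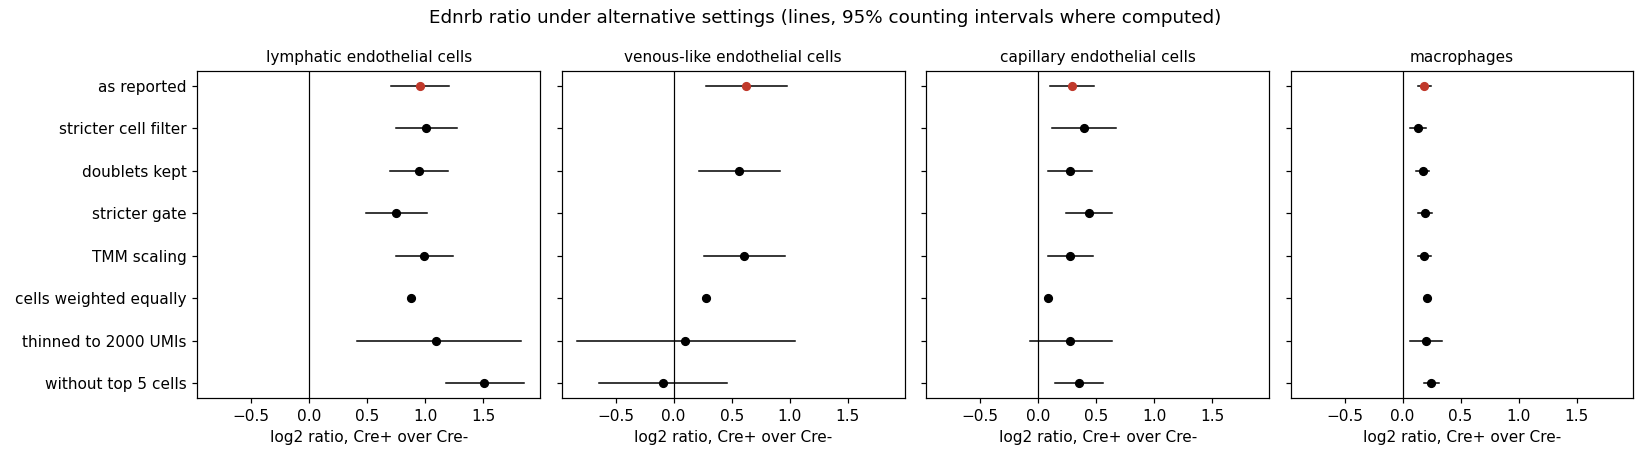
Log2 ratio of Ednrb, Cre+ library over Cre- library, in 4 classes under alternative ways of choosing and weighting cells (red, as reported; lines, 95% counting intervals where computed). In lymphatic endothelial cells every value lies above 0.5, and in venous-like cells the value without the 5 top cells is -0.09.

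Counted by class, few of the 10 genes were past 1.5-fold. In vascular endothelial cells it was 1 of 9 with at least 50 UMIs, Gucy1a1, and 8.41% of all 11446 genes so measured were past that fold. In arterial cells it was 0 of 6, with 7.71% of all genes. Capillary cells had 1 of 7, Pde5a, with 9.98% of all genes, and venous-like cells 1 of 7, Ednrb, with 12.2%. Smooth muscle cells had 0 of 9, with 6.97% of all genes. Fibroblasts had 1 of 10, Nos3, with 7.66%, and macrophages 2 of 6, Pde5a and Edn1, with 7.46%. Edn1 in macrophages stood at 1.65 CPM in the Cre+ library and 3.24 in the Cre- library, and 17 of the 27 control UMIs were in 1 cell. With 1 library per condition and so few genes, these counts cannot tell whether the genes in endothelium and muscle differed from genes in general. The median log2 ratio of those measured was 0.07 in vascular endothelial cells and 0.00 in smooth muscle cells, against -0.01 and -0.02 over all genes.

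Other genes of the pathways were taken from lists of 44 nitric oxide genes and 23 endothelin genes. In vascular endothelial cells, 6 of 38 measured genes of the nitric oxide list were higher by 1.5-fold or more and 4 lower, where 3.7% and 4.71% of all genes were, with a median log2 ratio of -0.11. Within subtypes, 3 of 33 were higher and 0 lower in arterial cells, and 4 of 27 were higher and 1 lower in capillary cells, where 7.71% and 9.98% of all genes were past that fold either way. The largest pooled ratios were those of Pde1a, a phosphodiesterase regulated by calmodulin, at 18.8 CPM in the Cre+ library and 6.85 in the Cre- library, Kcnma1, a potassium channel pore, at 5.82 (Cre+) and 2.41 (Cre-), and Nos2, the inducible synthase, at 9.92 (Cre+) and 18.0 (Cre-). Nos2 was nearly all in capillary cells, with 84 of 92 UMIs in the Cre+ library and 94 of 97 in the Cre- library, and the log2 ratio there was -0.47 (-0.91 to -0.03). Prkg1, the cyclic GMP-dependent kinase, was at 445 (Cre+) and 291 (Cre-). Pde1a and Kcnma1 are also genes of smooth muscle, and smooth muscle markers in vascular endothelial cells summed to 908 CPM in the Cre+ library and 607 in the Cre- library, with none at 0. Their part was not tested.

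None of the 18 measured genes of the endothelin list was past 1.5-fold in vascular endothelial cells, and the median log2 ratio was -0.06. Its largest ratios were those of Gnaq, the G protein subunit that couples endothelin receptors to phospholipase C, at 555 CPM in the Cre+ library and 386 in the Cre- library (log2 0.52, 0.45 to 0.60), Rgs2, which turns that G protein off, at 11.2 (Cre+) and 14.8 (Cre-) (-0.40, -0.84 to 0.04), and Mme, a peptidase that degrades endothelin, at 4.85 (Cre+) and 4.07 (Cre-) (0.25, -0.51 to 1.06). The intervals of Rgs2 and Mme included 0. In smooth muscle cells, 0 of 33 and 0 of 17 measured genes of the lists were past 1.5-fold. Gnaq was again higher, at 144 (Cre+) against 113 (Cre-) (0.35, 0.22 to 0.48). Its relative Gna11 was at 95.9 (Cre+) against 132 (Cre-) (-0.47, -0.60 to -0.33) and Rgs2 at 31.6 (Cre+) against 43.0 (Cre-) (-0.44, -0.68 to -0.20). Npr1, the receptor for atrial natriuretic peptide that also makes cyclic GMP, was at 93.5 in the Cre+ library and 129.7 in the Cre- library, a log2 ratio of -0.47 (-0.61 to -0.34). Prkg2, another cyclic GMP-dependent kinase, was at 3.20 (Cre+) and 4.73 (Cre-) (-0.56, -1.35 to 0.20), an interval that included 0, and Cavin2, a caveola coat protein, at 88.1 (Cre+) and 71.1 (Cre-) (0.31, 0.15 to 0.47).

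By the likeness measure used for the cyclase pair, the gene most like Nos3 was Gata2 (r = 0.98), that most like Cav1 was Cav2 (0.98), which encodes the caveolin that assembles with it, and that most like Ece1 was Ecscr (0.97). Edn1 was most like Hoxb9 (0.97), Ednra most like Col6a1 (0.98), Ednrb most like Nrp2 (0.93), Pde5a most like Cacnb3 (0.97) and Slc7a1 most like the ribosomal protein gene Rps25 (0.96). Each value covers 22 points, 11 classes in each of 2 libraries.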

How the data were processed

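Gene-by-barcode UMI counts were deposited for each library as a filtered 10x matrix written by Cell Ranger, version 7.2.0 per the file headers, against mm10, per the submitters' processing notes, which also name Seurat. The use of strand or introns in counting is not given in these sources; other-strand genes overlap Nos3, Cav1, Pde5a, Edn1, Ednra and Ece1, whose counts are uncertain to that extent. Raw counts were used as deposited.

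Cells needed 500 genes and no more than 10% mitochondrial UMIs. Scrublet (in scanpy 1.11.5) called 533 doublets in the Cre+ library but 0 in the Cre- library at its own threshold, so the Cre+ threshold of 0.237 was applied to both, leaving out 4.77% of cells in the Cre+ library and 2.10% in the Cre- library. Cells joined the class with the highest share of distinct markers (at least 3, with a lead of 20 percentage points, 10 for endothelial subtypes), thresholds set after seeing the marker distributions. This left 5.89% (Cre+) and 9.89% (Cre-) of cells ungated.

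UMIs were summed per class (at least 50 cells per library) and scaled to CPM. Ratios carry exact intervals (Clopper-Pearson, on how the UMIs of a gene divide between the libraries), levels exact Poisson intervals, and genes need 50 UMIs over both libraries for a ratio to be counted. The interval code was checked on simulated counts. With 1 library per group no test was run. Where a fold is counted it is 1.5 either way. All 10 genes are named in classes with 50 cells, and of each pathway list the 3 largest ratios in vascular endothelial and smooth muscle cells. Prkg1 was named after its values were seen. The members and lists were chosen with earlier results of these data known. Correlations used log2(CPM + 10) of genes with at least 200 UMIs, without gate markers. Alternatives covered cell filters, doublets, gates, TMM (edgeR 4.0.16), weights, thinning and minimum UMIs. Coordinates are from GENCODE vM21 (GRCm38), which held 99.6% of gene identifiers.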

Additional observations from a re-analysis of the deposited data

Results flagged for a closer look

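With the endothelium taken by subtype, for 3 genes the counting interval of the log2 ratio lay above 0 in one cell class and below 0 in another. The differences between classes were not tested, since each condition was 1 library. Ece1 had an interval below 0 in fibroblasts, at -0.24, and one above 0 in the pooled vascular endothelial cells, at 0.07 (0.00 to 0.13), but in no subtype.

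Cav1 had a log2 ratio of 0.28 in smooth muscle cells (579 CPM in the Cre+ library and 477 in the Cre- library) and of -1.80 in Schwann cells (68.7 in Cre+ and 239 in Cre-). Lymphatic endothelial cells and fibroblasts also lay below 0, at -0.25 and -0.16. In Schwann cells the value rested on 17 (Cre+) and 77 (Cre-) UMIs and was -3.23 without the 5 top cells, and the Schwann markers themselves summed to 14376 CPM in the Cre+ library and 25903 in the Cre- library.

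Gucy1a1 had a log2 ratio of 0.28 in fibroblasts (14.95 CPM in the Cre+ library and 12.3 in the Cre- library) and of -0.48 in lymphatic endothelial cells (142 in Cre+ and 198 in Cre-). In fibroblasts without a Pi16 UMI it was at 31.3 (Cre+) and 20.03 (Cre-), and in those with one at 12.6 (Cre+) and 11.6 (Cre-).

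Edn1 had a log2 ratio of 0.52 in smooth muscle cells (17.2 CPM in the Cre+ library and 11.99 in the Cre- library) and of -0.98 in macrophages (1.65 in Cre+ and 3.24 in Cre-). Without the 5 cells of each library with the most Edn1, the smooth muscle value was 0.37 (-0.07 to 0.82). The macrophage value turned to 0.94 (-0.55 to 2.74) without such cells.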

How the results depend on the processing

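No paired analysis was possible because each group held 1 library. Of 507 alternative values of 67 ratios, 419 stayed within the counting interval of the reported ratio, 82 left it and 6 turned the sign of a ratio past 1.5-fold. Over all ratios, 70 values had the other sign and 24 differed from the reported ratio by over 1.5-fold. Among the 24, Cav1 in macrophages was 0.21 as reported, 1.36 with doublets kept, 1.09 with the stricter gate and 1.23 without the 5 top cells. Ednrb in smooth muscle cells was -0.43 as reported, -2.27 with the stricter gate and 0.20 without the 5 top cells. Under TMM scaling all 67 stayed within it, and the shift was largest in T or NK cells, at -0.15 (log2).

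Ratios past 1.5-fold whose sign turned were Gucy1a1 in vascular endothelial cells thinned to 2000 UMIs (0.047) and Pde5a in capillary cells without cells bearing adipocyte, platelet or erythroid marker UMIs (-0.19). The others were Ednrb in venous-like cells without the 5 top cells (-0.091), and Edn1 in macrophages with doublets kept (0.19), the stricter gate (0.34) and without the 5 top cells (0.94).

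The number of genes past 1.5-fold in vascular endothelial cells, 1 as reported, was 0 with cells weighted equally, with thinning, without cells bearing those markers, with a minimum of 200 UMIs, with equal subtype weights and without the 5 top cells, and 2 with a minimum of 20 UMIs. In arterial cells it was 1 without the 5 top cells, against 0. In capillary cells, 1 as reported, it was 2 with cells weighted equally and without the 5 top cells, and 0 with thinning, without cells bearing those markers and with a minimum of 200 UMIs. In venous-like cells, 1 as reported, it was 0 with doublets kept, cells weighted equally, thinning and without the 5 top cells. In smooth muscle cells, 0 as reported, it was 1 with a cell filter of 1000 genes and 5% mitochondrial UMIs, doublets kept, the stricter gate, cells weighted equally, without cells bearing those markers and with a minimum of 20 UMIs. In fibroblasts, 1 as reported, it was 2 with that cell filter, cells weighted equally and thinning, 3 without cells bearing those markers and 0 with a minimum of 200 UMIs. The cause was not tested.

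Some settings left under 50 cells in a library and gave no value, among them macrophages without cells bearing those markers, since the platelet list holds Pf4. Leaving out the 5 top cells was chosen after seeing the data, as were the splits by Fos and Jun, Pi16, adipocyte markers and Folr2 or Cd163. Leaving out 5 cells takes a larger share from the library with fewer cells in a class, which by itself can lower the level there. With 1 library per condition, differences between mice, between loadings and between genotypes cannot be told apart. Genes with few UMIs, such as Ednra in endothelium, are limited by depth.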

Other observations

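Capillary endothelial cells with an adipocyte marker UMI, 78 in the Cre+ library and 55 in the Cre- library, had 347 (Cre+) and 283 (Cre-) Ednrb CPM, and those without had 311 (Cre+) and 252 (Cre-). Within smooth muscle cells thinned to 2000 UMIs, Gucy1a1 and Gucy1b1 were found together in 13.2% of cells in the Cre+ library and 13.3% in the Cre- library, where independent detection would give 12.8% (Cre+) and 14.3% (Cre-). In arterial endothelial cells, Nos3 and Edn1 were found together in 15.3% (Cre+) and 19.0% (Cre-), where independent detection would give 17.8% (Cre+) and 20.8% (Cre-). The other alpha-subunit cyclase gene of the nitric oxide list, Gucy1a2, was at 49.8 CPM in lymphatic endothelial cells of the Cre+ library and 94.1 in those of the Cre- library, lower like Gucy1a1 and Gucy1b1 there, with a log2 ratio of -0.92 (-1.29 to -0.55). It was named after its values were seen.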
